A study of Homo sapiens with 3 samples.

Results

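The genes described here are 39 heat shock proteins, chaperonin subunits and co-chaperones of the cytosol and the mitochondrion, together with the heat shock transcription factor HSF1. They were taken from a list of gene names, by a rule that uses no measured value, and all 39 were found among the 58037 genes of the count table. The list itself was chosen with earlier results of these data known. RWPE1 is an immortalized line of normal human prostate epithelial cells. Bulk RNA was sequenced from RWPE1 cells that had been sorted for green fluorescent protein (GFP), in 3 libraries of genotype OLFM4-wild type, OLFM4-Knock out and OLFM4-active, with 1 library for each. OLFM4 encodes olfactomedin 4, a secreted glycoprotein. The methods describe transfection with CRISPR/Cas9 double nickase knockout plasmids or activation plasmids, a GFP reporter construct and selection of stable lines in puromycin. They name the activation plasmids for the OLFM4-wild reporter cells and give no separate account of the OLFM4-active cells.

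Chaperones bind proteins that are not yet folded, or no longer folded, and keep them from aggregating. HSP70 proteins bind short stretches of a client with the help of J-domain proteins, and pass many clients on to HSP90, which acts later with its own set of co-chaperones. The ring-shaped chaperonin TRiC encloses actin, tubulin and other clients, the HSP60 ring does so in the mitochondrion, and many of these genes share HSF1 as a transcription factor. Dividing epithelial cells in culture use this system continuously, with constitutive members such as HSPA8 beside stress-inducible members such as HSPA1A.

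The libraries held 16309906 counts (OLFM4-wild), 58837147 (OLFM4-knockout) and 23224216 (labelled OLFM4-active). Levels are given as CPM, counts scaled to a common library size with TMM factors, a scaling that assumes that most genes do not differ between libraries. OLFM4 had 214, 131 and 16 counts in that order, or 11.8, 2.55 and 0.670 CPM, so the third library went against its label and is called the library labelled OLFM4-active throughout. MYC, to which the study relates OLFM4, stood at 274, 510.3 and 486 CPM. All 5 basal prostate epithelium markers looked for (KRT5, KRT14, KRT15, TP63 and ITGA6) were expressed, with a summed level of 17946, 39786 and 21388 CPM. KLK3, which marks luminal cells, had 2 counts in OLFM4-wild and 0 in the other libraries. Fibroblast and smooth muscle markers summed to between 23.9 and 36.5 CPM with 3 of 5 averaging 1 CPM or more, neuroendocrine markers to between 3.58 and 13.3 CPM with 1 of 3, and leukocyte markers to between 19.8 and 31.4 CPM with 1 of 3, while 0 of 3 endothelial markers reached that level. DES, CDH5 and CD3E were at 0 counts in all 3 libraries. The basal markers were highest in the OLFM4-knockout library, as were many of the genes below, and their part in those differences was not tested. With library totals in place of TMM, TP63 was lower in OLFM4-knockout than in OLFM4-wild (log2 fold change -0.16), and the other 4 stayed higher. In bulk RNA a change in the share of cells of a type cannot be told apart from a change in RNA per cell.

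With 1 library per condition there is no replicate error and no test, and each difference below is between libraries. Intervals in parentheses are exact conditional 95% intervals of the log2 fold change, and they cover counting error only. A gene was called higher or lower when the libraries differed by more than 1.5-fold. Over the 3 libraries all 39 genes averaged 1 CPM or more, and 37 averaged 10 CPM or more.

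In OLFM4-knockout cells the chaperone genes lay mostly above OLFM4-wild cells. Of the 39 genes, 19 were more than 1.5-fold higher, where 19.1% of all 16600 genes averaging 1 CPM or more were, and 2 were more than 1.5-fold lower, where 15.8% of all genes were. More than 2-fold, 6 were higher (5.77% of all genes) and 2 were lower (7.56% of all genes). The median log2 fold change of the 39 genes was 0.57, and that of all genes was 0.10. For genes averaging 10 CPM or more, the median was 0.17, with 19.9% higher and 8.92% lower. The interval lay wholly above 0 for 33 of the chaperone genes (42.4% of all genes) and wholly below 0 for 4 (29.8% of all genes). Intervals are narrower for genes with more counts. Of the 10597 genes averaging 10 CPM or more, the interval lay wholly above 0 for 5630 and wholly below 0 for 2943. The size of the difference of the chaperone genes depended on scaling, because TMM placed OLFM4-knockout 0.35 higher on the log2 scale than library totals did. On library totals 9 of the 39 were higher (7.02% of all genes) and 2 lower (30.2% of all genes), with a median of 0.22, and the median of all genes was -0.26.

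In the library labelled OLFM4-active most of the genes also lay above OLFM4-wild, with the interval wholly above 0 for 34 (35.2% of all genes) and wholly below 0 for 2 (28.1% of all genes). Of the 10597 genes averaging 10 CPM or more, the interval lay wholly above 0 for 4810 and wholly below 0 for 2811. Against OLFM4-wild, 9 of the 39 were more than 1.5-fold higher, where 12.3% of all genes were, and 2 were lower, where 14.5% of all genes were. The median was 0.37 for the chaperone genes and 0.05 for all genes, and 3 genes were more than 2-fold higher (3.78% of all genes) and 1 was lower (6.73% of all genes). For genes averaging 10 CPM or more the median was 0.10, with 10.8% higher and 7.29% lower. On library totals 6 were higher (8.82% of all genes) and 2 were lower (18.3% of all genes), with a median of 0.26, and the median of all genes was -0.07. Both comparisons share the OLFM4-wild library, so a value particular to that library enters both.

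**Figure D1:**
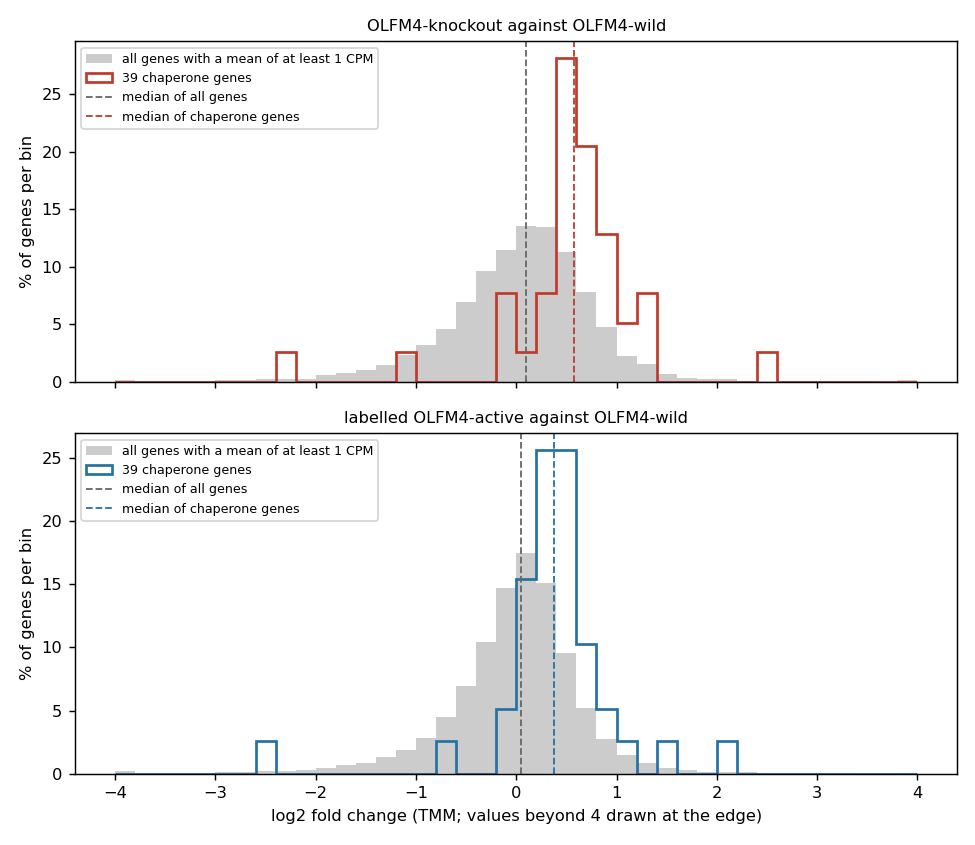
Share of genes (%, vertical axis) by log2 fold change after TMM scaling (horizontal axis, bins of equal width) for all genes averaging 1 CPM or more (grey) and for the 39 chaperone genes (outline), in OLFM4-knockout (top) and the library labelled OLFM4-active (bottom) against OLFM4-wild. The dashed medians stand at 0.57 against 0.10 in the top panel and at 0.37 against 0.05 in the bottom panel, and each outline has 1 gene below -2 (HSPB8) and 1 above 2 (HSPA8).

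As a share of all counts, the 39 genes took 0.685% in OLFM4-wild, 1.01% in OLFM4-knockout and 1.01% in the library labelled OLFM4-active. This share does not use TMM. Without HSPA8 the shares were 0.633%, 0.793% and 0.811%. HSPA8 by itself took 7.57% of the chaperone counts in OLFM4-wild, 21.5% in OLFM4-knockout and 19.5% in the library labelled OLFM4-active, so this gene made up much of the difference in the summed share.

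Levels between genes were compared within a library as TPM, which divides the counts of a gene by its exon length and scales each library to the same sum. The length used joins the exons of all annotated transcripts of a gene. It exceeds the canonical transcript unevenly, with 2701 against 2376 bases for CCT4 and 3585 against 1847 for CCT7. The order of genes below can depend on this choice. In OLFM4-wild cells HSPB1 (HSP27, a small heat shock protein) stood first at 684 TPM, followed by HSP90AB1 at 422 TPM, HSPA8 at 191 TPM and the TRiC subunit CCT4 at 153 TPM. HSPB8 was lowest at 2.70 TPM. In OLFM4-knockout cells HSPB1 (993 TPM) was followed by HSPA8 (641 TPM) and HSP90AB1 (436 TPM). In the library labelled OLFM4-active HSPA8 stood first at 745 TPM, ahead of HSPB1 at 717 TPM.

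**Figure D2:**
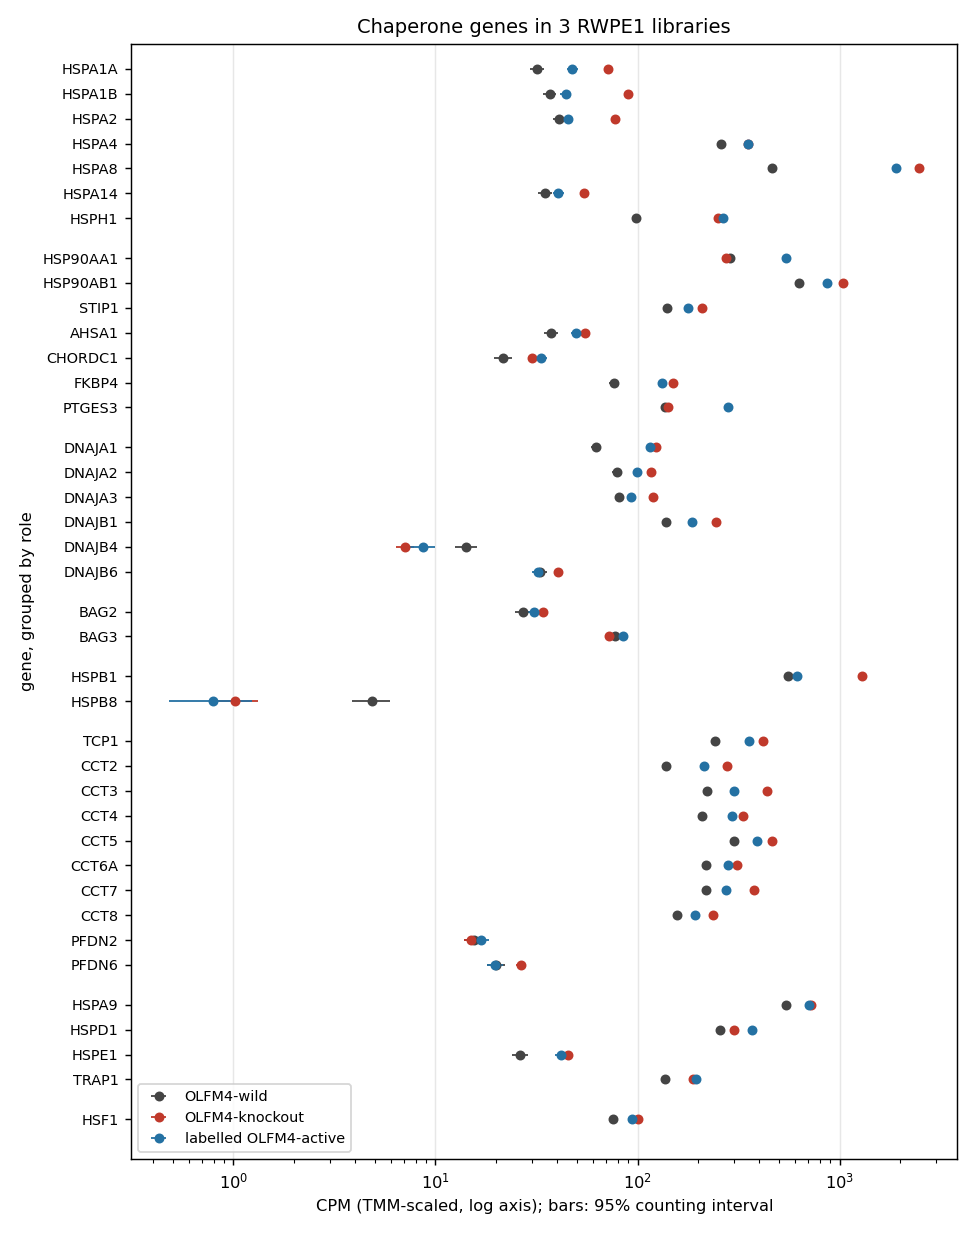
Level of each of the 39 chaperone genes (rows, grouped by role) in CPM after TMM scaling on a log axis, with 1 point per library and bars for the 95% counting interval. HSPA8 runs from 465 CPM in OLFM4-wild to 2483 CPM in OLFM4-knockout, and HSPB8 and DNAJB4 are the genes that stand clearly highest in OLFM4-wild.

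Heat shock elements, the sites HSF1 binds, are made of units of GAA or its reverse TTC in alternating direction. They were looked for as exact letters on both strands in RefSeq promoter windows (GRCh38.p14, 250 bases before to 50 after a start), of which 46 matched 34 of the 39 genes by symbol. CCT6A, FKBP4, HSF1, HSPA14 and PFDN2 had no window there. An element of 3 units (GAA, TTC and GAA, or TTC, GAA and TTC, with any 2 bases between neighbours) was present in 7 of the 46 windows (15.2%), belonging to 7 genes, and in 0.490% of all 35116 windows. An element of 2 units (GAANNTTC or TTCNNGAA), which every 3-unit match also holds, was present in 22 windows (47.8%) and in 13.5% of all windows. The E-box CACGTG, which MYC can bind, was present in 3 windows (6.52%; HSPA9, HSPD1 and HSPE1) and in 7.26% of all windows. The HSPD1 and HSPE1 matches are the same site, since their windows overlap. CCAAT or its reverse ATTGG was in 14 windows (30.4%) against 34.6% of all, and TATAAA or TTTATA in 3 (6.52%) against 11.5%. A match of letters is a description and not evidence of binding, and some genes have several windows.

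The 3-unit matches are shown with their surroundings, 30 bases each, since their share in these windows stood highest relative to all windows, as a ratio. Capitals mark the match, with overlapping matches joined.
CHORDC1, chr11:90223084-90223113, strand minus: accgGAAAATTCGCGAAGGTTCCTGAAacg
DNAJA1, chr9:33025267-33025296, strand plus: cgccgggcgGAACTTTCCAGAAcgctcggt
DNAJB6, chr7:157336864-157336893, strand plus: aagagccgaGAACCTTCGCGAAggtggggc
HSP90AA1, chr14:102087112-102087141, strand minus: ggagggttcTTCCGGAAGGTTCgggaggct
HSP90AB1, chr6:44247769-44247798, strand plus: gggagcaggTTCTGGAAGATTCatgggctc
HSP90AB1, chr6:44247822-44247851, strand plus: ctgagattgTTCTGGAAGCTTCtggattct
HSPA8, chr11:123062346-123062375, strand minus: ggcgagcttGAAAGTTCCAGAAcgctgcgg
HSPA8, chr11:123062171-123062200, strand minus: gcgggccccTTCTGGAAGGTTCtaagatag
HSPD1, chr2:197500061-197500090, strand minus: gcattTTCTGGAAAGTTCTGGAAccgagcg
The genes that carry these matches did not differ alike. In OLFM4-knockout against OLFM4-wild, HSPA8 had a log2 fold change of 2.42, DNAJA1 0.99, HSP90AB1 0.72, CHORDC1 0.48, DNAJB6 0.30, HSPD1 0.23 and HSP90AA1 -0.06. In the library labelled OLFM4-active the same genes had 2.04, 0.88, 0.46, 0.62, -0.03, 0.54 and 0.93. On library totals the OLFM4-knockout values of DNAJB6 (-0.06) and HSPD1 (-0.12) fell below 0. The HSP90AB1 matches lie in the window of an alternative start inside the gene, and the DNAJA1 match lies 4 to 16 bases after the start.

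HSPA8 (HSC70, ENSG00000109971, chr11:123057489-123063230, GRCh38, minus strand), the constitutive HSP70 of the cytosol, had the highest log2 fold change of the 39 genes in both comparisons, on either scaling. It stood at 465 CPM in OLFM4-wild, 2483 CPM in OLFM4-knockout and 1912 CPM in the library labelled OLFM4-active. OLFM4-wild was far below the other libraries, by 5.34-fold (log2 2.42, 2.38 to 2.45) against OLFM4-knockout and by 4.11-fold (log2 2.04, 2.01 to 2.07) against the library labelled OLFM4-active. Ranked by log2 fold change among all 16600 genes, HSPA8 was number 55 in the first comparison and number 82 in the second. On library totals its log2 fold changes were 2.06 and 1.92. Of 75-base stretches of its transcript, 6.76% occur elsewhere in the genome, and uniquely mapped reads alone were counted.

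Small nucleolar RNAs that guide RNA modification are cut from the HSPA8 transcript, and 3 of them are listed as genes of their own. SNORD14C had 11, 111 and 41 counts in OLFM4-wild, OLFM4-knockout and the library labelled OLFM4-active, SNORD14D had 22, 258 and 93, and SNORD14E had 19, 209 and 66. All 3 were lowest in OLFM4-wild, as HSPA8 was. Their log2 fold changes were 1.78 (0.94 to 2.88), 2.02 (1.42 to 2.75) and 1.93 (1.28 to 2.72) in OLFM4-knockout, and 1.46 (0.52 to 2.61), 1.66 (1.0 to 2.43) and 1.37 (0.65 to 2.22) in the library labelled OLFM4-active. SNORD14C and SNORD14D share 88 and 87 bases with annotated HSPA8 exons on the same strand, so reads there may come from either RNA.

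**Figure D3:**
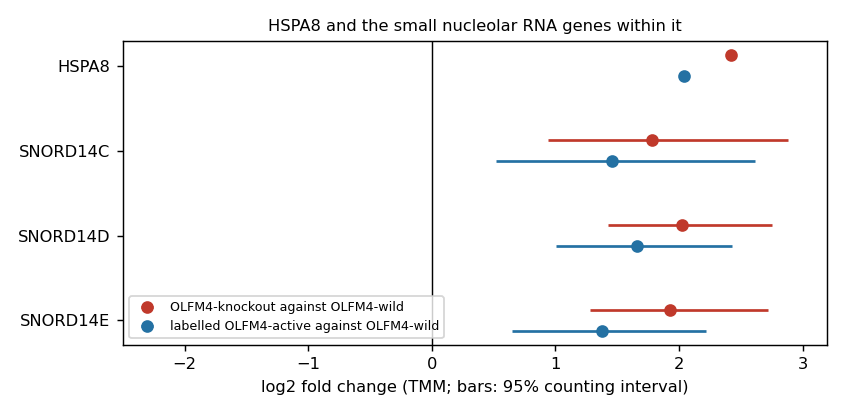
Log2 fold change against OLFM4-wild (horizontal axis, TMM scaling, bars for the 95% counting interval) for HSPA8 and the 3 small nucleolar RNA genes within it. All points lie above 0, between 1.37 for SNORD14E in the library labelled OLFM4-active and 2.42 for HSPA8 in OLFM4-knockout.

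HSPA1A and HSPA1B encode the stress-inducible HSP70 of the cytosol. HSPA1A stood at 31.8, 71.5 and 47.6 CPM and HSPA1B at 36.8, 90.0 and 44.1 CPM in OLFM4-wild, OLFM4-knockout and the library labelled OLFM4-active. Both were highest in OLFM4-knockout, with log2 fold changes of 1.17 (1.04 to 1.30) and 1.29 (1.17 to 1.41). In the library labelled OLFM4-active they were 0.58 (0.44 to 0.73) and 0.26 (0.12 to 0.40), neither past 1.5-fold. Their values are uncertain, because 73.8% of the 75-base stretches of HSPA1A and 70.2% of those of HSPA1B have a copy elsewhere. The copies lie mainly in the other gene of the pair. Read pairs that did not map uniquely were not counted, and how many this left out was not tested. HSPA1A took 46.3% of the counts of the pair in OLFM4-wild (43.5 to 49.2), 44.3% in OLFM4-knockout (43.2 to 45.4) and 51.9% in the library labelled OLFM4-active (49.8 to 54.0). Both together differed less than HSPA8 did, and their share of the counts of the 3 genes was 12.8% (12.2 to 13.5) in OLFM4-wild, 6.11% (5.98 to 6.24) in OLFM4-knockout and 4.58% (4.39 to 4.77) in the library labelled OLFM4-active.

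The likeness of the pair extends to the promoters, which are shown whole over the 250 bases before each start (chr6:31815293-31815542 and chr6:31827488-31827737, plus strand, RefSeq, GRCh38.p14). Aligned to each other, 93.6% of the positions are identical. Capitals mark the 2-unit heat shock element GAATATTC, and TATAAA lies 30 and 29 bases before the start.
HSPA1A: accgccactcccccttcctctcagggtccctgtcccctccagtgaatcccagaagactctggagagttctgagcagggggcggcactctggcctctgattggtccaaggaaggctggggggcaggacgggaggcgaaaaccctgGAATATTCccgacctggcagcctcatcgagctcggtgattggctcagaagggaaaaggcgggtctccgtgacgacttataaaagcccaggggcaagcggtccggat
HSPA1B: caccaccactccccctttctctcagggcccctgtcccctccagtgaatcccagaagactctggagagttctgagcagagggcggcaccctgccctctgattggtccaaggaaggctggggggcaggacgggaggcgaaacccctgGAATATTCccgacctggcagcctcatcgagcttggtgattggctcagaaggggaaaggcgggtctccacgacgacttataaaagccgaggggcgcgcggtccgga

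Of the other HSP70 and HSP110 genes, HSPH1 (HSP110, which exchanges the nucleotide of HSP70 and lets clients go) had 98.6, 248.9 and 264.8 CPM. OLFM4-wild was again the low library, with log2 fold changes of 1.34 (1.26 to 1.41) in OLFM4-knockout and 1.42 (1.35 to 1.5) in the library labelled OLFM4-active. HSPA2, an HSP70 best known from the testis, had 40.9, 77.4 and 45.0 CPM and stood apart in OLFM4-knockout (log2 0.92, 0.80 to 1.03), at 0.14 in the library labelled OLFM4-active. HSPA4, a relative of HSP110, was at 0.45 in both comparisons, and HSPA14, an HSP70 tied to the ribosome, was at 0.63 and 0.22. In this group 6 of 7 genes were more than 1.5-fold higher in OLFM4-knockout and 2 of 7 in the library labelled OLFM4-active, beside 19.1% and 12.3% of all genes. On library totals the counts were 4 and 2, beside 7.02% and 8.82% of all genes.

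The HSP90 group separated the libraries differently. HSP90AA1 (the stress-inducible HSP90, chr14:102080742-102139699) stood at 287 CPM in OLFM4-wild, 275 CPM in OLFM4-knockout and 545.5 CPM in the library labelled OLFM4-active. The last library was the high one and the others were close, with log2 fold changes of -0.06 (-0.11 to -0.02) in OLFM4-knockout, or -0.42 on library totals, and 0.93 (0.88 to 0.97) in the library labelled OLFM4-active. HSP90AB1, the constitutive HSP90, was highest in OLFM4-knockout instead, with 630.8, 1038 and 870.3 CPM and log2 fold changes of 0.72 (0.69 to 0.75) and 0.46 (0.43 to 0.50). HSP90AA1 therefore took 31.3% of the counts of both genes in OLFM4-wild (30.6 to 31.98), 20.9% in OLFM4-knockout (20.6 to 21.2) and 38.5% in the library labelled OLFM4-active (38.01 to 39.1). This share does not depend on the scaling between libraries, and relative to OLFM4-wild it was lower in OLFM4-knockout and higher in the library labelled OLFM4-active.

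The promoter of HSP90AA1 is shown because its heat shock elements, in capitals, lie close before the start. The gene did not differ by more than 1.5-fold in OLFM4-knockout and was higher in the library labelled OLFM4-active (log2 0.93). Binding of HSF1 was not tested. The promoter is chr14:102087045-102087294 on the minus strand (RefSeq, GRCh38.p14). The 250 bases before the start share 51.3% of aligned positions with those of HSP90AB1.
HSP90AA1: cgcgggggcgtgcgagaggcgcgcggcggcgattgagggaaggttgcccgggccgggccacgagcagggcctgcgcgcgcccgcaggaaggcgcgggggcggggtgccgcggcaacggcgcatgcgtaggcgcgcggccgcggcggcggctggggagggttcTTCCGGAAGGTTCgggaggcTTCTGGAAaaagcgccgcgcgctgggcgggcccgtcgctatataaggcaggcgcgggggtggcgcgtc

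PTGES3 (p23, which stabilizes the closed form of HSP90) followed a pattern like that of HSP90AA1, with 136, 142 and 280.4 CPM. Its log2 fold change was 0.06 (-0.01 to 0.13) in OLFM4-knockout, -0.29 on library totals, and 1.04 (0.97 to 1.11) in the library labelled OLFM4-active. FKBP4 (FKBP52, a peptidyl-prolyl isomerase of HSP90 complexes) was higher in both, with 76.2, 149 and 132 CPM and log2 fold changes of 0.97 (0.89 to 1.05) and 0.79 (0.70 to 0.89). STIP1 (HOP, which links HSP70 to HSP90) was at 0.57 and 0.34, AHSA1 (AHA1, which stimulates the HSP90 ATPase) at 0.55 and 0.41, and CHORDC1 (an HSP90 co-chaperone) at 0.48 and 0.62. More than 1.5-fold higher were 2 of 7 genes of this group in OLFM4-knockout, HSP90AB1 and FKBP4, and 4 of 7 in the library labelled OLFM4-active, HSP90AA1, PTGES3, FKBP4 and CHORDC1. Of all genes 19.1% and 12.3% were, so the count in OLFM4-knockout was near the background. On library totals these counts were 1 and 3, beside 7.02% and 8.82% of all genes.

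**Figure D4:**
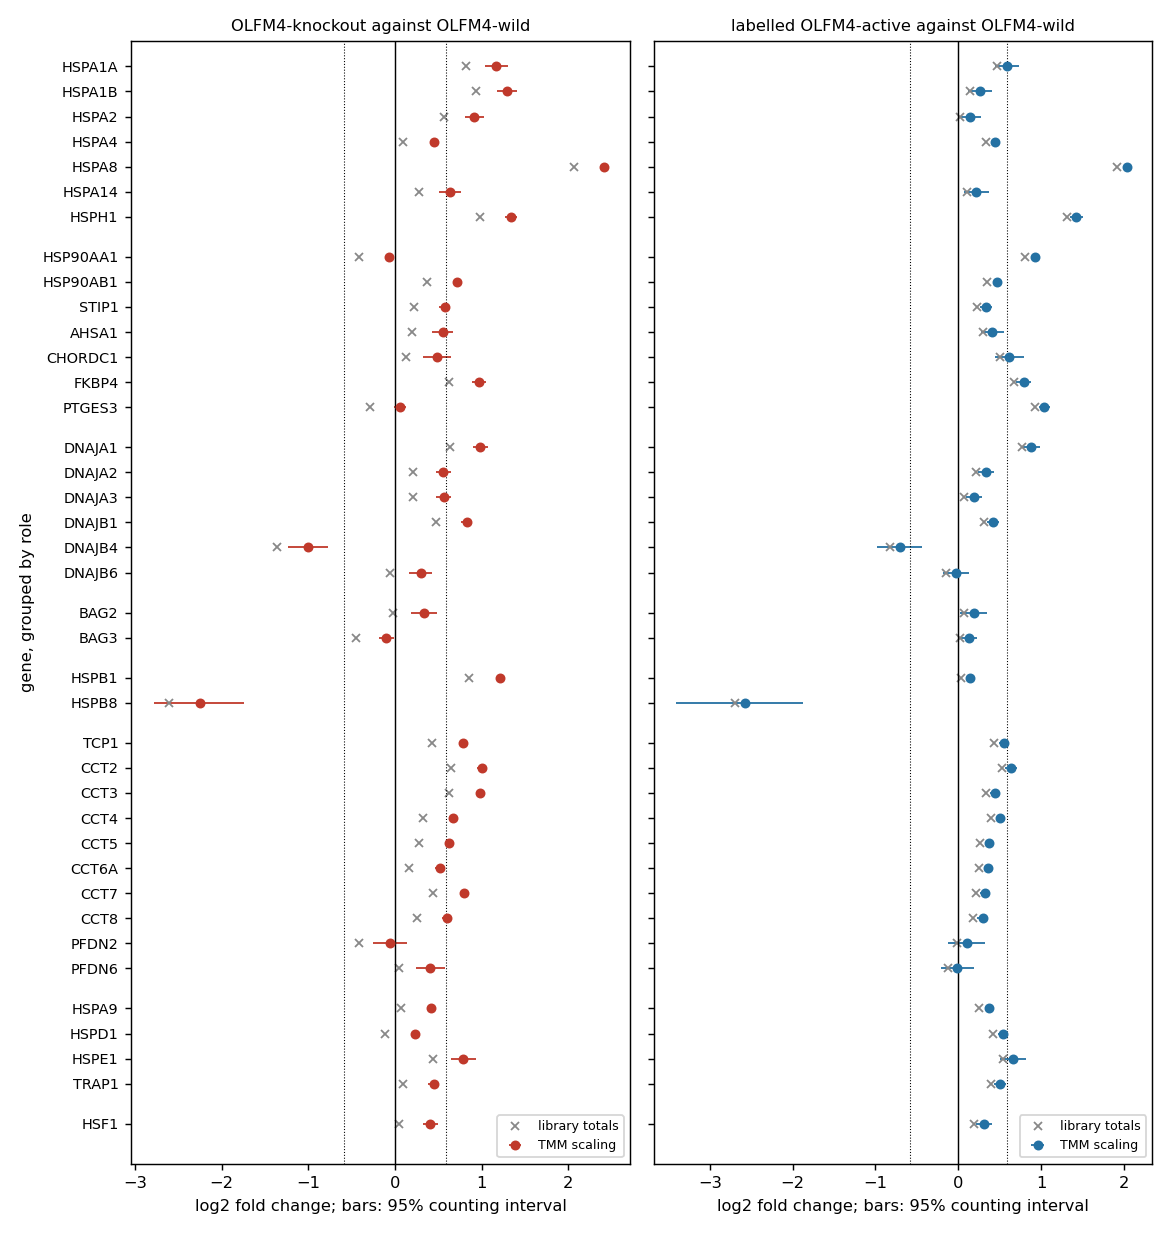
Log2 fold change of each chaperone gene (rows, grouped by role) against OLFM4-wild for OLFM4-knockout (left) and the library labelled OLFM4-active (right), with filled points and 95% counting bars for TMM scaling, crosses for library totals, and dotted lines at 1.5-fold. HSP90AA1 and PTGES3 sit near 0 on the left (-0.06 and 0.06) and near 1 on the right (0.93 and 1.04), whereas HSPB1 does the reverse (1.21 and 0.14).

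J-domain proteins deliver clients to HSP70 and start its ATPase. DNAJA1 had 62.2, 123 and 115 CPM and DNAJB1 (HSP40) 138, 246 and 185 CPM in OLFM4-wild, OLFM4-knockout and the library labelled OLFM4-active. Both were lowest in OLFM4-wild, with log2 fold changes of 0.99 (0.90 to 1.08) and 0.83 (0.77 to 0.89) in OLFM4-knockout, and 0.88 (0.78 to 0.98) and 0.42 (0.35 to 0.49) in the library labelled OLFM4-active. DNAJB1 took 69.0% of the counts of the pair in OLFM4-wild (67.4 to 70.5), 66.6% in OLFM4-knockout (65.9 to 67.3) and 61.7% in the library labelled OLFM4-active (60.6 to 62.9). DNAJA2 was at 0.56 and 0.33, and DNAJA3, the mitochondrial member, at 0.56 and 0.19. DNAJB6, which curbs aggregation of polyglutamine proteins, had 32.9, 40.4 and 32.2 CPM with log2 fold changes of 0.30 (0.17 to 0.43) and -0.03 (-0.18 to 0.13), and 21.8% of its 75-base stretches occur elsewhere in the genome.

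DNAJB4 was among the few chaperone genes that were lower than in OLFM4-wild. It had 257, 362 and 207 counts, or 14.1, 7.05 and 8.66 CPM, with log2 fold changes of -1.0 (-1.24 to -0.77) in OLFM4-knockout and -0.71 (-0.98 to -0.44) in the library labelled OLFM4-active. OLFM4-wild was the high library on either scaling, with values of -1.36 and -0.82 on library totals.

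BAG proteins release the client from HSP70 by nucleotide exchange. BAG3, which also links HSP70 to HSPB8 in selective autophagy, stood at 77.3, 72.1 and 84.8 CPM, a log2 fold change of -0.10 (-0.19 to -0.01) in OLFM4-knockout, or -0.45 on library totals, and 0.13 (0.03 to 0.23) in the library labelled OLFM4-active. BAG2, which inhibits the ubiquitin ligase that acts with HSP70, stood at 27.1, 34.2 and 30.8 CPM, with log2 fold changes of 0.33 (0.19 to 0.48), which became -0.02 on library totals, and 0.18 (0.02 to 0.35). BAG3 took 74.0% of the counts of both genes in OLFM4-wild (72.0 to 76.0), 67.8% in OLFM4-knockout (66.6 to 69.1) and 73.3% in the library labelled OLFM4-active (71.6 to 74.96). RAB23 overlaps 42.7% of the BAG2 exon bases on the opposite strand, and the counting used strand.

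The small heat shock proteins hold unfolded proteins without using ATP, and the 2 members differed in opposite directions in OLFM4-knockout. HSPB1 (chr7:76302673-76304295) had 557, 1288 and 615.5 CPM. OLFM4-knockout stood apart with a log2 fold change of 1.21 (1.18 to 1.24), while the library labelled OLFM4-active was at 0.14 (0.11 to 0.18), or 0.03 on library totals. HSPB8 (HSP22, chr12:119171555-119224855) had 88, 52 and 19 counts, or 4.84, 1.01 and 0.795 CPM. Although the OLFM4-knockout library was the deepest, it held fewer HSPB8 counts than OLFM4-wild, and the log2 fold changes were -2.25 (-2.78 to -1.75) and -2.58 (-3.40 to -1.88). The counts of HSPB8 are low, and its intervals are the widest of the 39 genes.

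The promoters of both are shown for this contrast (chr7:76302423-76302672 and chr12:119178681-119178930, plus strand, RefSeq, GRCh38.p14). Each holds a 2-unit heat shock element, in capitals, and neither holds a 3-unit element.
HSPB1: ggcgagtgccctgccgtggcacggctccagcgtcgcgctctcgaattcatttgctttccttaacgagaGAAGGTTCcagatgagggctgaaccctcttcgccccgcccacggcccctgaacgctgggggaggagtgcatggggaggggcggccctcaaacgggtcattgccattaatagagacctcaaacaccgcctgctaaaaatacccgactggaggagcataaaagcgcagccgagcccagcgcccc
HSPB8: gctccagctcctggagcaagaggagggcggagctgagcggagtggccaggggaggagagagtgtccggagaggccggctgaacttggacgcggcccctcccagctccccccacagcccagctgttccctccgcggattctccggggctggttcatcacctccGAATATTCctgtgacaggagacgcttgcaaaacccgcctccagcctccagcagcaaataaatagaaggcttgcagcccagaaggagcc

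TRiC, the cytosolic chaperonin, is a ring of different subunits, and prefoldin hands actin and tubulin to it. All 8 subunits stood above OLFM4-wild in both libraries, where 9405 and 8943 of all 16600 genes averaging 1 CPM or more did. Their log2 fold changes ran from 0.51 (CCT6A) to 1.0 (CCT2) in OLFM4-knockout. In the library labelled OLFM4-active they ran from 0.30 (CCT8) to 0.64 (CCT2). CCT2 had 138, 276 and 214 CPM, and CCT3 had 221, 435 and 300.3 CPM. In OLFM4-knockout, CCT2 was at 1.0 (0.94 to 1.07) and CCT3 at 0.98 (0.93 to 1.03), and in the library labelled OLFM4-active at 0.64 (0.57 to 0.71) and 0.44 (0.39 to 0.50). TCP1 (0.78 and 0.55), CCT7 (0.79 and 0.33), CCT4 (0.68 and 0.51), CCT5 (0.63 and 0.37) and CCT8 (0.60 and 0.30) lay between. On library totals all 8 remained above 0 in both comparisons, where 5399 and 7325 of all 16600 genes were. The lowest were CCT6A at 0.16 in OLFM4-knockout and CCT8 at 0.18 in the library labelled OLFM4-active.

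The balance among the TRiC subunits shifted little. CCT2 took 8.09% of the counts of the 8 subunits in OLFM4-wild (7.79 to 8.40), 9.69% in OLFM4-knockout (9.54 to 9.84) and 9.33% in the library labelled OLFM4-active (9.08 to 9.57). CCT3 took 13.0% (12.6 to 13.4), 15.3% (15.1 to 15.5) and 13.1% (12.8 to 13.3), so its share differed in OLFM4-knockout while the intervals of the other libraries overlapped. CCT6A went the other way, with 12.8% (12.4 to 13.2), 10.9% (10.8 to 11.1) and 12.2% (11.9 to 12.5). The largest share was that of CCT5 in OLFM4-wild at 17.7%. A long noncoding gene overlaps 30.8% of the CCT5 exon bases on the opposite strand.

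The prefoldin subunits differed from TRiC. PFDN2 had 15.6, 14.9 and 16.7 CPM, and its log2 fold changes of -0.06 (-0.26 to 0.14) and 0.10 (-0.12 to 0.33) were within counting error of 0 on TMM scaling. On library totals they were -0.41 and -0.01, and the first then lay further from 0 than its counting error. PFDN6 had 19.9, 26.4 and 19.8 CPM, at 0.40 (0.24 to 0.58) and -0.01 (-0.21 to 0.19). PFDN2 took 43.9% of the counts of both in OLFM4-wild (40.0 to 47.8), 36.1% in OLFM4-knockout (34.1 to 38.2) and 45.8% in the library labelled OLFM4-active (42.5 to 49.2). Of TRiC and prefoldin together, 7 of 10 genes were more than 1.5-fold higher in OLFM4-knockout and 1 of 10, CCT2, in the library labelled OLFM4-active, beside 19.1% and 12.3% of all genes, so the second count was near the background. On library totals the counts were 2 and 0, beside 7.02% and 8.82% of all genes.

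**Figure D5:**
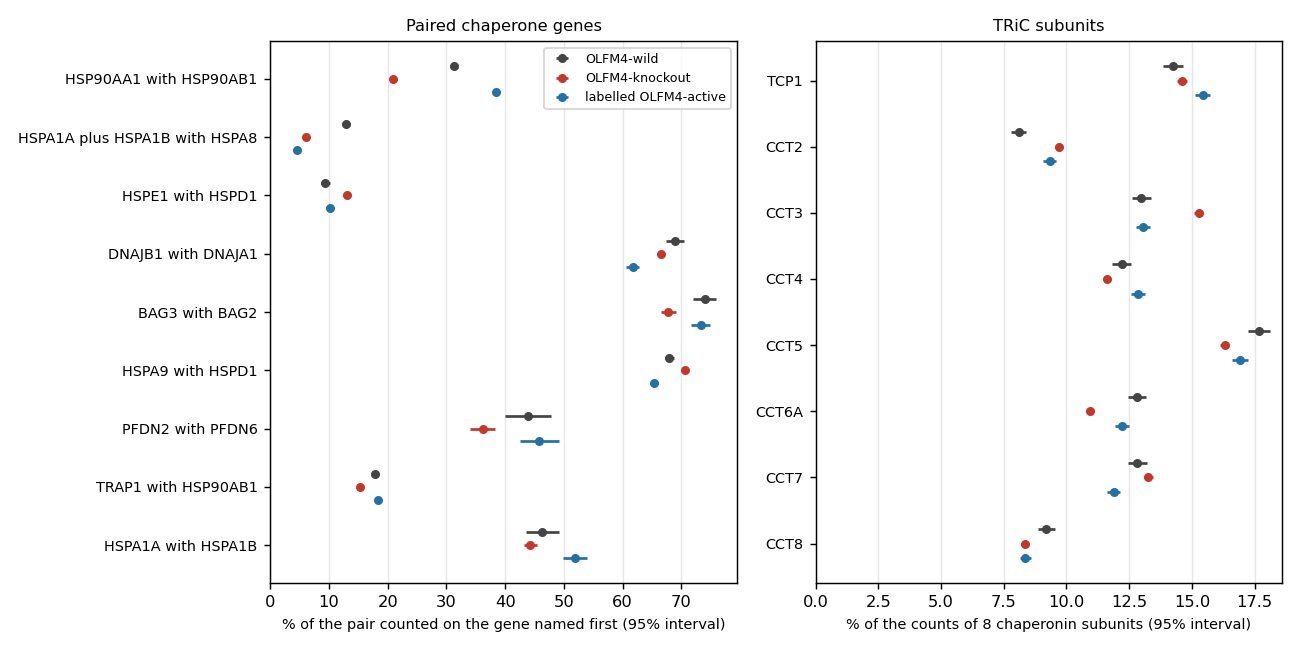
Left, share (%) of the counts of a pair of chaperone genes that fell on the gene named first, and right, share (%) of the counts of the 8 TRiC subunits that fell on each, with 1 point per library and bars for the exact 95% binomial interval. HSP90AA1 moves from 31.3% of its pair in OLFM4-wild to 20.9% in OLFM4-knockout and 38.5% in the library labelled OLFM4-active, while the TRiC shares stay between 8.09% and 17.7%.

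The mitochondrial chaperones had a median of 0.43 in OLFM4-knockout, where the HSP70 and HSP110 group had 1.17, and of 0.52 in the library labelled OLFM4-active, where that group had 0.45. HSPA9 (mortalin, the HSP70 of the matrix) had 543, 725.5 and 702 CPM, at 0.42 (0.39 to 0.45) and 0.37 (0.33 to 0.41). HSPD1 (HSP60, the matrix chaperonin) had 255.6, 300.4 and 370.7 CPM, at 0.23 (0.19 to 0.28) in OLFM4-knockout and 0.54 (0.48 to 0.59) in the library labelled OLFM4-active. On library totals the OLFM4-knockout value of HSPD1 was -0.12. TRAP1, the mitochondrial HSP90, had 137, 187 and 195 CPM, at 0.45 (0.39 to 0.51) and 0.51 (0.44 to 0.58). HSPE1 (HSP10, the lid of the HSP60 ring) had 26.3, 45.4 and 41.6 CPM and was the gene of the group past 1.5-fold, at 0.79 (0.64 to 0.93) and 0.66 (0.50 to 0.82), or 0.43 and 0.55 on library totals, within 1.5-fold.

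HSPD1 and HSPE1 lie head to head on chromosome 2 and are transcribed apart from each other, yet their counts did not keep a fixed ratio. HSPE1 took 9.33% of the counts of both in OLFM4-wild (8.55 to 10.2), 13.1% in OLFM4-knockout (12.6 to 13.6) and 10.1% in the library labelled OLFM4-active (9.5 to 10.7). Copies elsewhere in the genome cover 20.9% of the 75-base stretches of HSPD1 and 21.3% of those of HSPE1. The readthrough gene HSPE1-MOB4 shares 192 of the 1823 HSPE1 exon bases (10.5%) on the same strand. Those exon bases join all annotated transcripts, and the canonical HSPE1 transcript has 557 bases. How many of the shared bases lie in it was not tested. HSPE1-MOB4 had 612, 2522 and 1085 counts in OLFM4-wild, OLFM4-knockout and the library labelled OLFM4-active, where HSPE1 had 478, 2331 and 994. How reads were divided between these genes was not tested. HSPA9 took 68.0% of the counts shared with HSPD1 in OLFM4-wild (67.2 to 68.8), 70.7% in OLFM4-knockout (70.3 to 71.1) and 65.4% in the library labelled OLFM4-active (64.9 to 66.0). TRAP1 took 17.9% (17.2 to 18.5), 15.3% (15.02 to 15.6) and 18.3% (17.9 to 18.8) of the counts shared with HSP90AB1.

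HSF1, the transcription factor that drives the heat shock response, had 75.9, 100.5 and 94.0 CPM. Its log2 fold changes were 0.40 (0.32 to 0.49) and 0.31 (0.21 to 0.41), below 1.5-fold in both, and 0.05 and 0.19 on library totals. HSF1 is controlled largely as a protein, which counts of its RNA do not show.

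OLFM4-knockout was also set beside the library labelled OLFM4-active, a comparison added after the counts had been seen. Here 4 of the 39 genes were more than 1.5-fold higher in OLFM4-knockout, where 14.0% of all genes were, and 2 were lower, where 10.9% of all genes were. More than 2-fold, 2 were higher (2.95% of all genes) and 0 were lower (3.39% of all genes). For genes averaging 10 CPM or more, 11.8% were past 1.5-fold higher and 7.67% lower. The higher genes were HSPB1 (1.07, 1.04 to 1.09), HSPA1B (1.03, 0.93 to 1.13), HSPA2 (0.78, 0.68 to 0.88) and HSPA1A (0.59, 0.49 to 0.68). The lower genes were HSP90AA1 (-0.99, -1.02 to -0.95) and PTGES3 (-0.98, -1.03 to -0.93). On library totals HSPA2 (0.54) and HSPA1A (0.35) fell within 1.5-fold. By that scaling 2 genes were higher (971 of all 16600 genes) and 2 were lower (3347 of all genes). The median was 0.23 for the chaperone genes and 0.08 for all genes, and on library totals they were -0.01 and -0.16. HSPH1 was at -0.09 (-0.13 to -0.05), or -0.33 on library totals, within 1.5-fold on either scaling.

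Other chaperone and co-chaperone genes of the same compartments were read from a second list, of which 57 of the 66 genes in the table averaged 1 CPM or more. In OLFM4-knockout 15 of the 57 were more than 1.5-fold higher (19.1% of all genes) and 2 were lower (15.8% of all genes), with a median of 0.40. On library totals 0 were higher (7.02% of all genes) and 8 were lower (30.2% of all genes), with a median of 0.05, where that of all genes was -0.26. In the library labelled OLFM4-active 7 were higher (12.3% of all genes) and 5 were lower (14.5% of all genes), with a median of 0.18. On library totals 3 were higher (8.82% of all genes) and 5 were lower (18.3% of all genes), with a median of 0.07. The median of all genes was then -0.07. The highest of those averaging 10 CPM or more in OLFM4-knockout were GRPEL1 (nucleotide exchange for HSPA9; 0.93, 0.76 to 1.11), RUVBL2 (an ATPase of the R2TP complex; 0.88, 0.81 to 0.95) and HSPBP1 (an HSP70 exchange factor; 0.86, 0.70 to 1.03). The lowest were CRYAB (alpha B-crystallin, a small heat shock protein; -0.62, -0.84 to -0.40), DNAJC21 (a J-domain protein of ribosome assembly; -0.38, -0.49 to -0.27) and HSF2 (a second heat shock factor; -0.38, -0.58 to -0.17). HSPA6, a strictly stress-inducible HSP70 picked after its values were seen, had 4, 70 and 29 counts, with log2 fold changes of 2.47 (1.21 to 4.55) and 2.32 (0.95 to 4.43), at a mean of 0.933 CPM.

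Chaperones of the endoplasmic reticulum, a compartment outside the 39 genes, had a median nearer to that of all genes in OLFM4-knockout. Of 16 genes 1, SDF2L1, was more than 1.5-fold higher (19.1% of all genes) and 0 were lower (15.8% of all genes), with a median of 0.17, where that of all genes was 0.10. On library totals 1 was higher (7.02% of all genes) and 3 were lower (30.2% of all genes), with a median of -0.18, where that of all genes was -0.26. HSPA5 (BiP, the HSP70 of this compartment) was lowest at -0.38 (-0.43 to -0.32), followed by MANF at -0.26 and HSP90B1 (GRP94) at -0.25, while DNAJB11 (0.58), PDIA6 (0.36) and P4HB (0.36) were the highest of those averaging 10 CPM or more. In the library labelled OLFM4-active HSPA5 was higher, at 1.06 (1.01 to 1.12), and CALR (calreticulin) lower, at -0.91 (-0.96 to -0.87), with a median of 0.11 over the list. HSPA5 thus resembled HSP90AA1 and PTGES3 in having its highest level in the library labelled OLFM4-active, with 212, 163 and 444 CPM.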

How the data were processed

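Total RNA of GFP-sorted RWPE1 cells was sequenced as stranded, rRNA-depleted, paired-end libraries. The authors deposited counts as whole numbers for each gene, from read pairs that mapped uniquely and on the reverse strand, made with HISAT2 and featureCounts on GENCODE GRCh38 and not normalized, and cutadapt is named in the submitters' processing notes. Reads that also map elsewhere were left out by this counting, which lowers the values of genes with copies.

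Library sizes were scaled with TMM factors over the 3 libraries (edgeR 4.0.16, R 4.3.3; factors 1.11, 0.872 and 1.03), and log2 fold changes used an offset of 0.5 counts. Intervals are Clopper-Pearson at 95%. Other steps ran in Python 3.11.15 (biopython 1.88, scipy 1.17.1, numpy 2.4.6, pandas 2.3.3), with plots in matplotlib 3.10.9. Gene names, positions and exon lengths came from GENCODE version 44, which holds 56948 of the 58037 gene identifiers. Copies were counted as identical 75-base stretches of the canonical transcript in GRCh38. With 1 library per condition no test could be fitted, and the limma-voom fit of the study was not used.

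The 39 genes and the other lists were chosen with earlier results of these data known. The values of all 39 genes are given, in full for the 8 largest and 8 smallest differences in OLFM4-knockout, the 4 largest and 4 smallest in the library labelled OLFM4-active, the paired genes and HSF1, and of the other lists the 3 largest and 3 smallest with a mean of at least 10 CPM in OLFM4-knockout. SDF2L1 and CALR are named besides as single calls, picked after their values were seen. Part of the cell type markers is not reported here. The pair of HSPA1A with HSPA1B, among 9 pairs, was also added then. Alternatives were library totals, DESeq2 1.42.0 size factors, upper quartile factors, TMM without the 10 most abundant genes, an offset of 5 counts, thinning to the shallowest library and other low-value filters. Simulated counts checked the procedure for OLFM4-knockout against OLFM4-wild: of 200 genes given a log2 fold change of 1.0 among 16600, 98.0% were recovered past 1.5-fold. Of 16400 unchanged genes, 156 were also past 1.5-fold. The simulated counts held Poisson counting error alone, with the scaled library sizes supplied. Variation between cultures and error in the scaling were not simulated, so the recovery says nothing about either. A comparison of protein sequences was planned and not run, since no protein table was used here.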

Additional observations from a re-analysis of the deposited data

How the results depend on the processing

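The median of the 39 chaperone genes stayed above 0 in both comparisons on each scaling tried, and its size did not hold. On library totals, 9 of the 39 chaperone genes were more than 1.5-fold higher in OLFM4-knockout in place of 19, and the median was 0.22 there and 0.26 in the library labelled OLFM4-active. Upper quartile factors gave an OLFM4-knockout median of 0.49. With a mean of at least 10 CPM, 37 genes stayed in and 0 were lower in either comparison, since HSPB8 and DNAJB4 had dropped out. Of 78 log2 fold changes (39 genes in both comparisons), 13 fell back within 1.5-fold on library totals, 3 with upper quartile factors and 2 after thinning. The sign changed for PTGES3, HSPD1, DNAJB6 and BAG2 (OLFM4-knockout) and PFDN2 (library labelled OLFM4-active) on library totals, for PTGES3 (OLFM4-knockout) with upper quartile factors, and for PFDN6 (library labelled OLFM4-active) with upper quartile factors and with DESeq2 size factors. None of these values was past 1.5-fold in the comparison where its sign changed. An offset of 5 counts, no low-value filter and TMM without the 10 most abundant genes changed none of these signs or counts by over 1.5 times. The cause of the difference between scalings was not tested. No paired analysis was possible because each condition has 1 library and the labels give no replicate numbers, and no library could be left out for the same reason. Depth limits HSPB8 most, with 19 counts in the library labelled OLFM4-active.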
